A study of Mus musculus with 11 samples.

Results

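The mitochondrial carrier family SLC25 is the set of membrane proteins that move nucleotides, phosphate, amino acids, organic acids, cofactors and metals across the inner mitochondrial membrane. Its members were taken as every protein-coding gene whose mouse symbol is Slc25a followed by a number, after the Ensembl identifiers of the deposited counts had been matched to symbols. The rule gave 47 genes of 37583 gene identifiers. It used no measured value, but members and the lists used below were chosen with earlier results of these data known. RNA had been sequenced from 11 clonal lines of granulocyte-monocyte progenitors (GMPs), the blood progenitors that give rise to neutrophils and monocytes. Of these lines 6 were wild-type (WT) and 5 carried a knockout of Taz (KO), and the comparison asks which carriers differ in RNA level when Taz is lost. Taz encodes tafazzin, the transacylase that remodels cardiolipin, the signature phospholipid of the inner mitochondrial membrane. All lines of both genotypes derive from fetal livers of C57BL/6 embryos at day 15.5, carried retroviral ER-Hoxb8, a fusion of Hoxb8 to an estrogen receptor domain that holds progenitors in an immature state while estradiol is present, and grew in 0.5 uM beta-estradiol with conditioned medium equal to about 50 ng/ml of stem cell factor. Each line was expanded from a single cell, so a clone stands for 1 cell's progeny. Titles run from WT 1A, 1B, 1C, 2D, 2E and 2F to KO 3H, 3I, 4J, 4K and 4L, and the labels do not say what the number in a title marks, so the p-values reflect only how these clones vary.

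Most SLC25 proteins share a fold of repeats, each with a pair of membrane helices, and work as exchangers that open in turn to either face of the inner membrane. They are made in the cytosol and inserted through the TIM22 complex, and several are known to bind cardiolipin tightly, the ADP/ATP carriers above all. In developing blood cells the family is best known for mitoferrin, which brings iron in for heme, and for the glycine carrier that feeds the first step of heme synthesis.

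Of the 47 members 38 could be tested, and 3 of these (7.89%) differed between the genotypes, near the 5.05% of all tested genes. Slc25a33, the pyrimidine nucleotide carrier, was higher in KO clones, and Slc25a1, the citrate carrier, and Slc25a10, the dicarboxylate carrier, were lower. Their promoters are shown because they are the 3 members that differed. Each stretch runs from 250 bases before to 50 after the annotated start, is written 5′ to 3′ on the gene's own strand, and comes from RefSeq on GRCm38.p6, at chr16:17928170-17928469 (minus strand) for Slc25a1, chr11:120491587-120491886 (plus strand) for Slc25a10 and chr4:149774218-149774517 (minus strand) for Slc25a33. Capitals mark the E-box CACGTG and the CCAAT box, which reads ATTGG on the other strand.
Slc25a1: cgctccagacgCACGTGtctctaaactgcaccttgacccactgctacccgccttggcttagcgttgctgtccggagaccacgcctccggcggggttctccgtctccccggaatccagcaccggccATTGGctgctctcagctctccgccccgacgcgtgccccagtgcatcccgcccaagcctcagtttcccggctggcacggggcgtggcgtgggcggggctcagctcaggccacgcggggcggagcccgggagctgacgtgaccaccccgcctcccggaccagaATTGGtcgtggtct
Slc25a10: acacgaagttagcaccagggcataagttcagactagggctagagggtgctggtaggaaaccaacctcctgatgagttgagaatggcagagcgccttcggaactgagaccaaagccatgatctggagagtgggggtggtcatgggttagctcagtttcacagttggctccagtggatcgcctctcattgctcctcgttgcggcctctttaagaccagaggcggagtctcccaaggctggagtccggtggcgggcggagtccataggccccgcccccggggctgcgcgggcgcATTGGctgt
Slc25a33: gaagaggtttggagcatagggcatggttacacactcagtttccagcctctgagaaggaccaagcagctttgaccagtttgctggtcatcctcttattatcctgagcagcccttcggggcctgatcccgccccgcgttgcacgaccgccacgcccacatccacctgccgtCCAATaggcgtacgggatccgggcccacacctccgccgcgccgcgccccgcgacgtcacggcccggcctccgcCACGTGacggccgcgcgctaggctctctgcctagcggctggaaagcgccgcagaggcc
The E-box, the recognition sequence of Myc and related factors, began 239 bases before the start of Slc25a1 and 8 bases before that of Slc25a33, and no E-box lay in the Slc25a10 window. A CCAAT box began 125 bases before the start of Slc25a1 and 81 bases before that of Slc25a33, while those of Slc25a10 and a further one of Slc25a1 lay after the start. The table held 46 promoters for 36 members. The E-box occurred in 8 of the 46 (17.4%) and in 7.15% of all 32851 promoters of the same length. CCAAT occurred in 22 (47.8%) and in 37.4% of all. Among the 30 tested members in the table, the E-box genes were Slc25a1, Slc25a13, Slc25a14, Slc25a15, Slc25a33 and Slc25a36, so a gene higher in KO clones, a gene lower in them and 4 uncalled genes held the same letters. TGATGNAA, the amino acid response element bound by ATF4, was in 0 member promoters and in 3.97% of all, and TCACNCCAC, a sterol response element, was in 1 (Slc25a18) and in 1.24% of all. All motifs were searched on both strands, a match shows only letters in this window, and the E-box and CCAAT matches printed do not overlap.

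Gene counts totalled 19778119 to 27431544 per clone (25.0 ± 2.15 M in WT and 21.6 ± 1.90 M in KO clones, SD, n = 6 and 5), and any 2 libraries of a genotype differed by more than sampling noise. Levels are given in CPM, each gene's count scaled to the size of its library. Taz itself, the check of the labels, stood at 39.1 ± 2.54 CPM in WT and 3.23 ± 0.68 in KO clones, and the groups did not overlap (exact permutation test, two-sided, p = 0.00216, the smallest that 462 arrangements allow). Progenitor markers such as Mpo and Elane summed to 12503 to 21622 CPM in WT and 11620 to 19242 in KO clones. Of the 8 markers 0 were called by edgeR or DESeq2 and 0 had an unadjusted p under 0.05. Mpo, at means of 9989 and 9387 CPM, dominated the sum, which says little about Elane. Elane spread widely and overlapped, from 23.3 to 825 CPM in WT and 2.26 to 147 in KO clones. Its means were 231 and 56.4 CPM, with a log2 fold change, KO minus WT, of -2.03 (edgeR, adjusted p = 0.371). The median log2 fold change of the 8 was -0.06. WT 2D stood apart with 1504 CPM of late neutrophil granule genes (14.96 to 141 in the other 10 clones). Eosinophil markers summed to 160 CPM in WT 2D, 72.7 in WT 1A and 0.188 to 17.6 in the other clones. Mast cell and basophil markers summed to 1050 to 3982 CPM in WT and 2049 to 4778 in KO clones, lowest in WT 2D. Of 2 and 4 tested markers in these lists edgeR and DESeq2 called 0. B lymphoid markers summed to 32.8 to 85.6 CPM in WT against 6.07 to 28.5 in KO clones, with 1 of 7 markers at 0 in every clone. Of 5 tested B lymphoid markers edgeR called 1 (Cd79b, lower), DESeq2 1 and limma-voom 0. Ebf1, the most abundant at 30.0 ± 8.55 and 16.0 ± 9.24 CPM, overlapped between genotypes and was not called (edgeR, adjusted p = 0.260). The part of any of these marker lists in the results below was not tested beyond the fits named there. In bulk RNA, fewer cells of a type and less RNA per cell cannot be told apart.

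Of the 47 members, 38 passed the filter on low counts and were tested together with all other genes, 11900 in all, by edgeR's quasi-likelihood test with Benjamini-Hochberg adjustment. A gene is called at an adjusted p under 0.05, and fold changes are on the log2 scale, KO minus WT, with the standard error. The 3 calls were 7.89% of the tested members, where 5.05% of all tested genes were called. The 1 higher member was 2.63%, beside 2.76% of all genes, and the 2 lower members were 5.26%, beside 2.29%. KO and WT values did not overlap for 3 members, Slc25a33, Slc25a1 and Slc25a4, or 7.89%, and for 5.99% of all genes. These shares lie near those of all genes, and none of the 3 calls reached a log2 fold change of 1. The median log2 fold change was -0.01 over the members and -0.01 over all genes, and the median absolute value was 0.10 and 0.11. Of the 38, 17 had a positive and 21 a negative estimate. At an unadjusted p under 0.05 there were 7 members (18.4%) and 20.3% of all genes. DESeq2 called 1 member higher and 3 lower, of 1261 genes called, with Slc25a20 the addition. Between the title numbers, 0 members differed for 2 against 1 among WT clones and 0 for 4 against 3 among KO clones, beside 0% of all genes in both contrasts (edgeR's quasi-likelihood test). At an unadjusted p under 0.05 the counts were 0 and 1 members, and 372 and 161 of all genes, and DESeq2 called 0 members in either contrast.

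**Figure D1:**
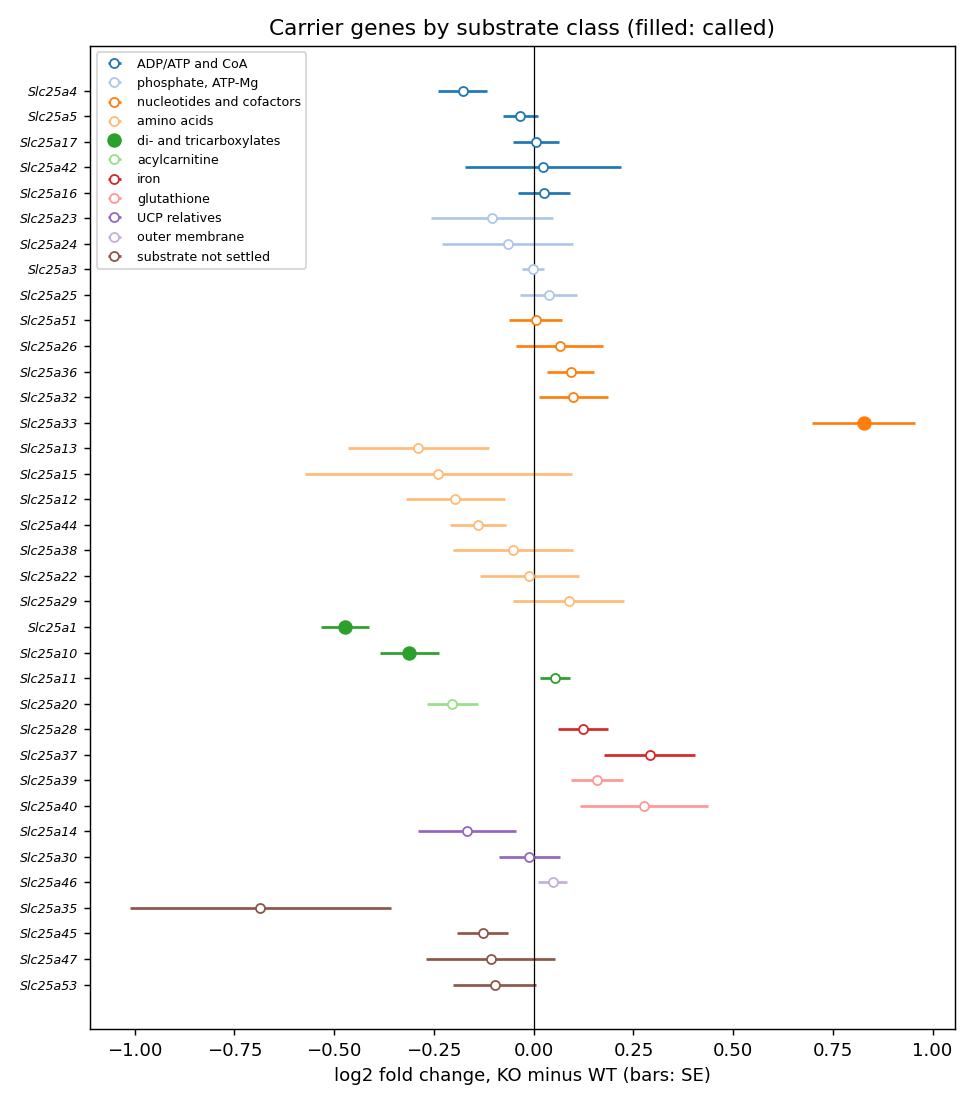
Log2 fold change, KO minus WT, of tested SLC25 members grouped by transported substrate, with bars of 1 standard error. Filled points mark the 3 called members, and Slc25a43 is left out because 6 of its 11 values are 0.

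Summed over the family, 4 of the 5 KO clones (0.289 to 0.299% of gene counts) lay below every WT clone (0.305 to 0.313%), and KO 4J, at 0.310%, lay among the WT clones. Member CPM summed to 3086 ± 46.4 in WT and 2986 ± 79.0 in KO clones, which was 0.309 ± 0.00313% and 0.298 ± 0.0076% of gene counts (SD, n = 6 and 5, no test). Slc25a3, Slc25a4 and Slc25a5 made up 39.9 ± 1.53% of that sum in WT and 40.3 ± 0.73% in KO clones. Abundant members weigh most in the sum. Slc25a1 had means of 143 CPM in WT and 103 in KO clones, and Slc25a39 went the other way, at 190 and 212. The median log2 fold change over the tested members was -0.01, so the sum does not show a shift of the family as a whole. Every length used here is the union of all annotated exons of a gene, which can exceed the transcript in these cells. It was 1646 bases for Slc25a5 and 5550 for Slc25a3. Without division by length Slc25a3 stood above Slc25a5, at means of 681 and 363 CPM in WT clones. Orders and ratios per length between genes therefore depend on the length used. Per kilobase of exon, the order in WT clones began with Slc25a5 at 221 ± 13.8 CPM per kb, then Slc25a3 at 123 ± 3.58, Slc25a4 at 80.0 ± 7.91, Slc25a39 at 68.9 ± 5.67, Slc25a1 at 66.1 ± 5.68 and Slc25a11 at 45.0 ± 2.23. The WT ranges of Slc25a5 (203 to 239) and Slc25a3 (120 to 128) did not overlap each other or any below, whereas that of Slc25a39 (65.02 to 80.3) overlapped those of Slc25a4 (73.9 to 94.0) and Slc25a1 (55.9 to 72.8), which did not reach each other. In KO clones the order at those ranks differed, with Slc25a39 at 76.9 ± 5.87, Slc25a4 at 70.7 ± 1.21 and Slc25a1 at 47.6 ± 1.81 CPM per kb, and the ranges of the first 2 of these overlapped.

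**Figure D2:**
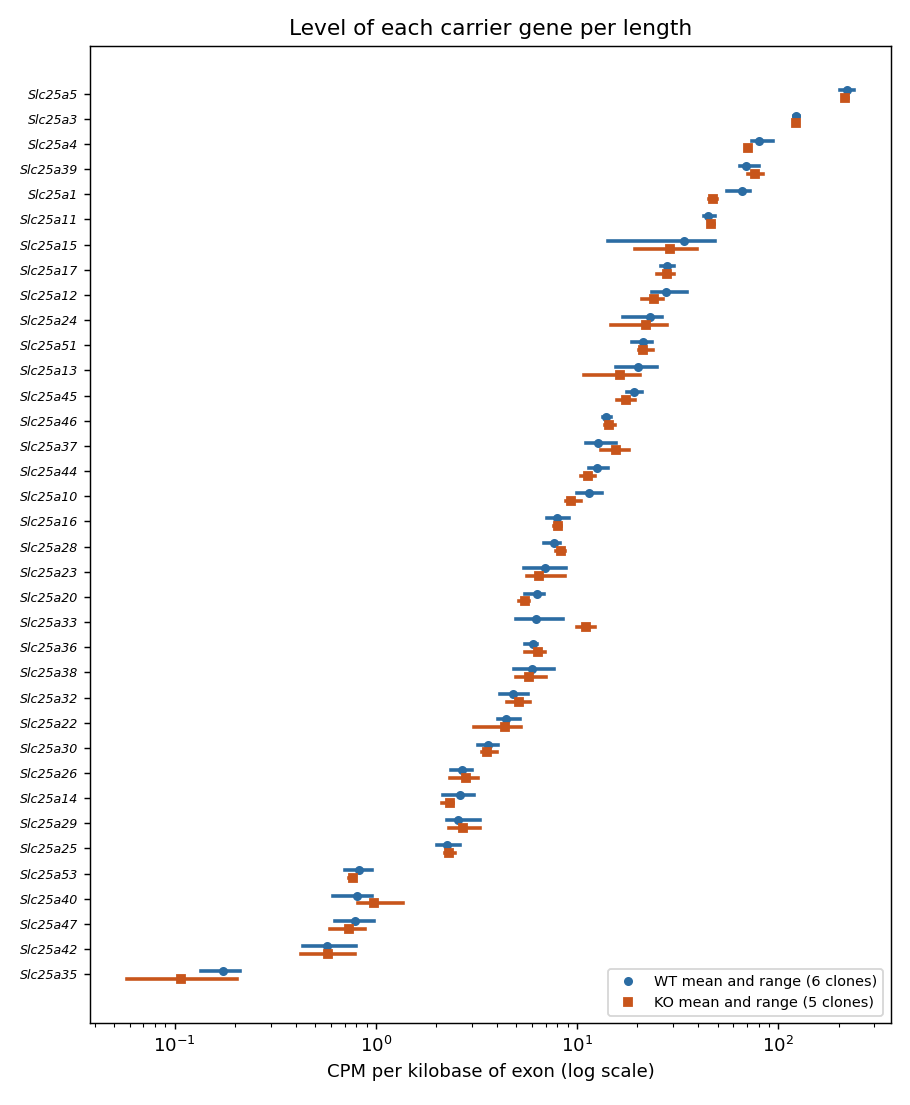
Level of tested members per kilobase of exon (CPM per kb, log axis), as the mean and the range over the 6 WT and the 5 KO clones, ordered by the WT mean, with Slc25a43 left out. Per kilobase of all annotated exons, Slc25a5, Slc25a3 and Slc25a4 lead in WT clones, and the KO range of Slc25a1 sits below its WT range.

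The carriers of di- and tricarboxylates held both lower calls. Of 4 members 3 were tested, 2 were lower and none higher, where 2.29% of all tested genes were lower. The median log2 fold change of the 3, -0.31, is the value of Slc25a10 itself and adds nothing to the calls. Slc25a1 exports citrate from the matrix in exchange for malate, and the cytosol turns that citrate into acetyl coenzyme A for lipid synthesis. In WT clones Slc25a1 ran from 121 through a median of 145 to 158 CPM, and in KO clones it stood at 98.7, 107, 101, 108 and 101. All KO clones were below all WT clones, and the lowest WT clone was 2D. The means were 143 ± 12.3 and 103 ± 3.92 CPM (SD, n = 6 and 5), which is -0.47 ± 0.06 in log2 fold change (edgeR, adjusted p = 0.00231). Leaving out any 1 clone kept the call, with adjusted p between 0.000285 and 0.0105, and the value was -0.52 without WT 2D. The call was lost without the WT clones of title number 1 (-0.43, adjusted p = 0.0663) and without the KO clones of title number 4 (-0.47, 0.128).

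Slc25a10 exchanges malate or succinate for phosphate. Its WT values ran from 34.5 through a median of 39.8 to 46.0 CPM, and its KO values were 31.5, 30.5, 30.6, 36.1 and 31.8. The groups overlapped, since KO 4K lay above WT 2F, and the highest WT clone was 2D. Means of 39.9 ± 3.88 and 32.1 ± 2.31 CPM (SD, n = 6 and 5) gave -0.31 ± 0.07 in log2 fold change (edgeR, adjusted p = 0.0390). The call was lost in each fit without 1 of WT 1A, WT 1B, WT 1C, WT 2E, KO 3H, KO 3I, KO 4J and KO 4L, with adjusted p up to 0.102, while the log2 fold change stayed between -0.33 and -0.29. It was also lost with set means (-0.32, adjusted p = 0.0780), with counts summed per title number (-0.32, 0.0683) and without any 1 title number (-0.35 to -0.28, adjusted p from 0.0716 to 0.258). The antisense gene Gm11788, which shares 228 exon bases with it, had 0 to 3 counts in every clone, and Gm13068, antisense to Slc25a33, had 0 to 3 as well. Reads ambiguous between genes, 2.85 ± 0.058% in WT and 2.79 ± 0.073% in KO clones, were credited to no gene. These low counts therefore cannot show that the antisense genes are silent. Slc25a11, the oxoglutarate carrier of the malate-aspartate shuttle, was not called (95.3 ± 4.73 and 98.9 ± 1.91 CPM, log2 fold change 0.05 ± 0.04, adjusted p = 0.471, edgeR). Slc25a21, the oxodicarboxylate carrier, was not tested, with at most 9 counts in a clone.

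**Figure D3:**
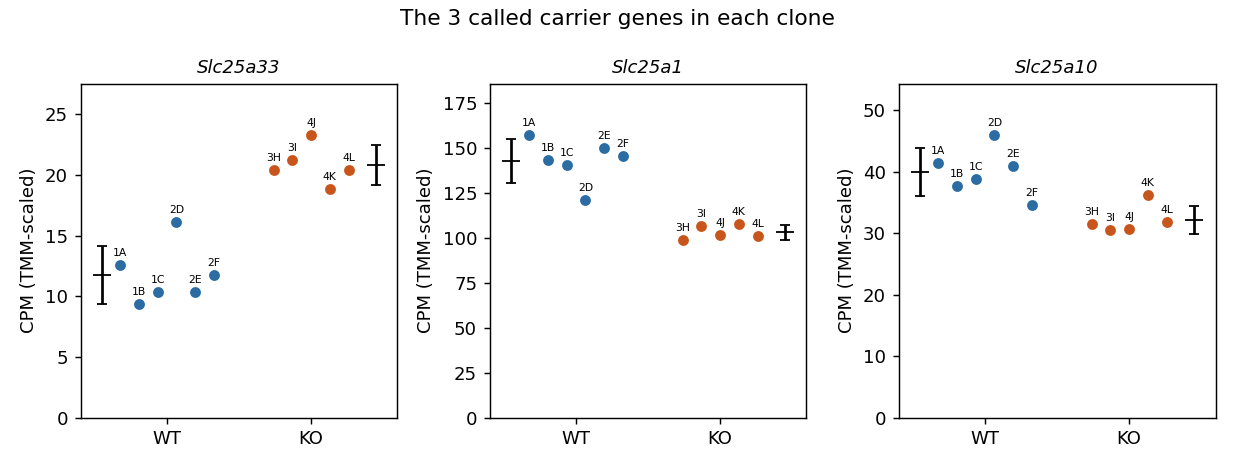
CPM of the called members in every clone, with group means and SD. The 5 KO values of Slc25a33 lie above the 6 WT values, those of Slc25a1 lie below them, and those of Slc25a10 overlap.

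Genes that work with the carriers were read in lists chosen with earlier results of these data known. For this list and those below, the shares over all tested genes were 2.76% higher and 2.29% lower. The list of malate-aspartate and citrate-malate shuttle enzymes had 1 higher and 1 lower gene of 7 tested, with a median log2 fold change of -0.08. Acly, which cleaves cytosolic citrate, was lower in KO clones. Its WT values ran from 729 to 821 CPM and its KO values from 558 to 676, with no overlap, and the log2 fold change was -0.32 ± 0.05 (edgeR, adjusted p = 0.00687). The Acly call was kept on leaving out any 1 clone, and lost with counts summed per title number (-0.31, adjusted p = 0.0757) and without title number 1 (-0.33, 0.102) or 4 (-0.24, 0.232). Got1, the cytosolic aspartate aminotransferase, was higher at 65.7 ± 10.8 against 43.5 ± 7.55 CPM (0.60 ± 0.14, edgeR adjusted p = 0.0340). Its groups overlapped, and the call was lost in 8 of the 11 fits that left 1 clone out, all but those without WT 2D, KO 3H and KO 4L. Ucp2 has the same fold but another name, and is known to carry C4 dicarboxylates. It was lower in KO clones, at 444, 418, 453, 470 and 403 CPM against 580 to 723 in WT clones, and the groups did not overlap. Its log2 fold change of -0.59 ± 0.06 (edgeR, adjusted p = 0.000985) kept its call in all 28 alternative fits. Of the other carrier-fold genes, Mtch1 (-0.01, adjusted p = 0.965) and Mtch2 (-0.05, adjusted p = 0.297), both outer membrane proteins, were not called by edgeR.

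The carriers of pyrimidine nucleotides and of cofactors such as NAD, folate and S-adenosylmethionine had 6 members, all tested, with 1 higher, none lower and a median log2 fold change of 0.08. Slc25a33 imports pyrimidine nucleotides for mitochondrial DNA and RNA synthesis. In WT clones it ran from 9.38 through a median of 11.1 to 16.1 CPM, and in KO clones it stood at 20.4, 21.3, 23.3, 18.8 and 20.4. Every KO clone was above every WT clone, and WT 2D was the highest of its group. The means were 11.8 ± 2.42 and 20.8 ± 1.647 CPM (SD, n = 6 and 5), and the log2 fold change of 0.83 ± 0.13 (edgeR, adjusted p = 0.00687) put KO clones at 177% of WT. The call held on leaving out any 1 clone, with adjusted p from 0.000859 to 0.0228 and a value of 0.94 without WT 2D. It was lost without the clones of title number 1 (0.71, adjusted p = 0.105), 3 (0.82, 0.0735) or 4 (0.83, 0.176).

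Slc25a36, the other pyrimidine nucleotide carrier, was not called, at 57.9 ± 2.86 and 61.8 ± 5.22 CPM (log2 fold change 0.09 ± 0.06, edgeR adjusted p = 0.421). Per length, Slc25a33 stood at 0.787 to 1.55 times Slc25a36 in WT clones (median 0.952) and at 1.64 to 1.81 times in KO clones (median 1.71), with no overlap. Slc25a51 for NAD, Slc25a32 for folate and Slc25a26 for S-adenosylmethionine had log2 fold changes from 0.01 to 0.10 and none of these was called. Of 13 tested makers of NAD, coenzyme A and thiamine pyrophosphate, 0 were called, with 2 at an unadjusted p under 0.05 and 0 called by DESeq2, and the most abundant, Nadk, was at 171 ± 21.9 and 182 ± 12.3 CPM (0.10 ± 0.08, edgeR adjusted p = 0.567).

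Mitochondrial folate enzymes, which use what Slc25a32 brings in, had 3 higher and 0 lower genes of 5 tested, with a median of 0.47. Over all tested genes 2.76% were higher and 2.29% lower, and this list too was chosen with earlier results known. The 3 were Shmt2, which splits serine (0.47 ± 0.11), Mthfd2, the next enzyme of the path (0.78 ± 0.18), and Aldh1l2, which oxidises formyl-folate (2.89 ± 0.70), with edgeR adjusted p of 0.0323, 0.0363 and 0.0399. KO and WT values overlapped for each. The calls were lost in 9, 10 and 9 of the 11 fits that left 1 clone out, all but those without WT 2D and KO 4K for Shmt2, WT 2D for Mthfd2, and WT 2D and KO 4J for Aldh1l2. Slc25a32 itself was at 29.3 ± 3.20 and 31.4 ± 2.99 CPM (0.10 ± 0.09, edgeR adjusted p = 0.565).

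Adenine nucleotide exchange and coenzyme A transport had 6 members, of which 5 were tested and 0 called by edgeR or DESeq2, with a median log2 fold change of 0.01. Slc25a4 alone had an unadjusted p under 0.05. Slc25a5, the broadly expressed ADP/ATP carrier ANT2, ran from 335 through 362 to 393 CPM in WT clones and stood at 348, 348, 361, 367 and 350 in KO clones, with full overlap (-0.03 ± 0.04, edgeR adjusted p = 0.723). Slc25a4, the ADP/ATP carrier ANT1 best known from heart and muscle, ran from 174 through 181 to 221 CPM in WT clones and stood at 163, 164, 169, 167 and 169 in KO clones. All KO values of Slc25a4 lay below all WT values, yet the difference of -0.18 ± 0.06 did not pass (edgeR, adjusted p = 0.127). It was called when the title number entered as a random block in limma-voom (-0.17, adjusted p = 0.0441). With counts summed per title number it was not called (-0.17, adjusted p = 0.172). The random block called 1963 genes in all, where limma-voom without it called 599, and its standard error for Slc25a4 was smaller (0.051 against 0.061). Each title number holds clones of 1 genotype, so a call gained only with this block is not stronger evidence than the first fit. Slc25a31, the germ cell ADP/ATP carrier, had 0 counts in every clone, and Slc25a16, Slc25a17 and Slc25a42, linked to coenzyme A transport in mitochondria or peroxisomes, had log2 fold changes between 0.01 and 0.03.

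Phosphate and ATP-Mg/phosphate carriers had 5 members, of which 4 were tested and 0 called by edgeR or DESeq2, 0 at an unadjusted p under 0.05, with a median of -0.03. Slc25a3 brings in the phosphate used by ATP synthase. It ran from 666 through 670 to 709 CPM in WT clones and stood at 666, 694, 683, 676 and 683 in KO clones. Its means of 681 ± 19.8 and 680 ± 10.4 CPM differed by less than the spread between clones (log2 fold change 0.00 ± 0.03, edgeR adjusted p = 0.990). The calcium-regulated ATP-Mg carriers Slc25a23, Slc25a24 and Slc25a25 had estimates of -0.10 ± 0.15, -0.07 ± 0.16 and 0.04, and Slc25a41 had at most 1 count in a clone.

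Amino acid carriers had 9 members, of which 7 were tested and 0 called by edgeR or DESeq2, 0 at an unadjusted p under 0.05. Of the 7 estimates 1 was positive and 6 were negative, with a median of -0.14. The aspartate-glutamate carriers of the malate-aspartate shuttle, Slc25a12 and Slc25a13, were at 204 ± 37.96 and 178 ± 18.5 CPM (-0.20 ± 0.12, adjusted p = 0.408) and at 76.1 ± 15.4 and 62.3 ± 14.1 CPM (-0.29 ± 0.18, adjusted p = 0.397) by edgeR. Per length, Slc25a13 stood at 0.468 to 1.02 times Slc25a12 in WT and 0.418 to 0.772 times in KO clones. Slc25a44, the branched-chain amino acid carrier, was at 44.9 ± 4.24 and 40.7 ± 2.61 CPM (-0.14 ± 0.07, edgeR adjusted p = 0.301), and the glutamate carrier Slc25a22 at 26.5 ± 2.66 and 26.3 ± 4.93 CPM. Slc25a38, the glycine carrier of heme synthesis, had an estimate of -0.05 and Slc25a29, a carrier of basic amino acids, one of 0.09.

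Slc25a15, the ornithine carrier, came next after Slc25a43 among tested members in its spread between clones of 1 genotype. It stood at 112, 264, 237, 80.0, 189 and 275 CPM in WT clones 1A to 2F and at 111, 222, 201, 172 and 110 in KO clones 3H to 4L. Low and high clones occurred in both genotypes, and the log2 fold change of -0.24 ± 0.33 was not called (edgeR, adjusted p = 0.746). Its within-genotype SD of log2 CPM was 0.63, more than that of 87.1% of tested genes.

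Enzymes that act on these amino acids were read beside the carriers. Of 5 tested ornithine and proline enzymes 2 were higher and 0 lower, beside 2.76% and 2.29% of all genes, with a median of 0.12. Pycr1, the last step of proline synthesis, was at 9.69 ± 3.75 and 24.2 ± 2.50 CPM without overlap (1.32 ± 0.23, edgeR adjusted p = 0.0113). The Pycr1 call was kept on leaving out any 1 clone, and lost with summed counts (1.36, adjusted p = 0.0505) and without title number 1, 3 or 4 (1.13 to 1.45, adjusted p from 0.111 to 0.183). Aldh18a1, the first step, was higher by 0.47 ± 0.10 (edgeR, adjusted p = 0.0258), and lost the call without WT 1B, WT 2F, KO 3H, KO 3I, KO 4J or KO 4L. Of 6 tested genes of branched-chain amino acid breakdown 1 was higher and 0 lower, with a median of -0.05. That gene, Bcat1, the cytosolic aminotransferase, was at 2.21 to 25.0 CPM in WT and 65.6 to 107 in KO clones (3.68 ± 0.64, edgeR adjusted p = 0.0113). The Bcat1 call was kept on leaving out any 1 clone, and lost with summed counts (3.73, adjusted p = 0.0880) and without title number 1, 3 or 4 (3.04 to 3.73, adjusted p from 0.0837 to 0.182).

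**Figure D4:**
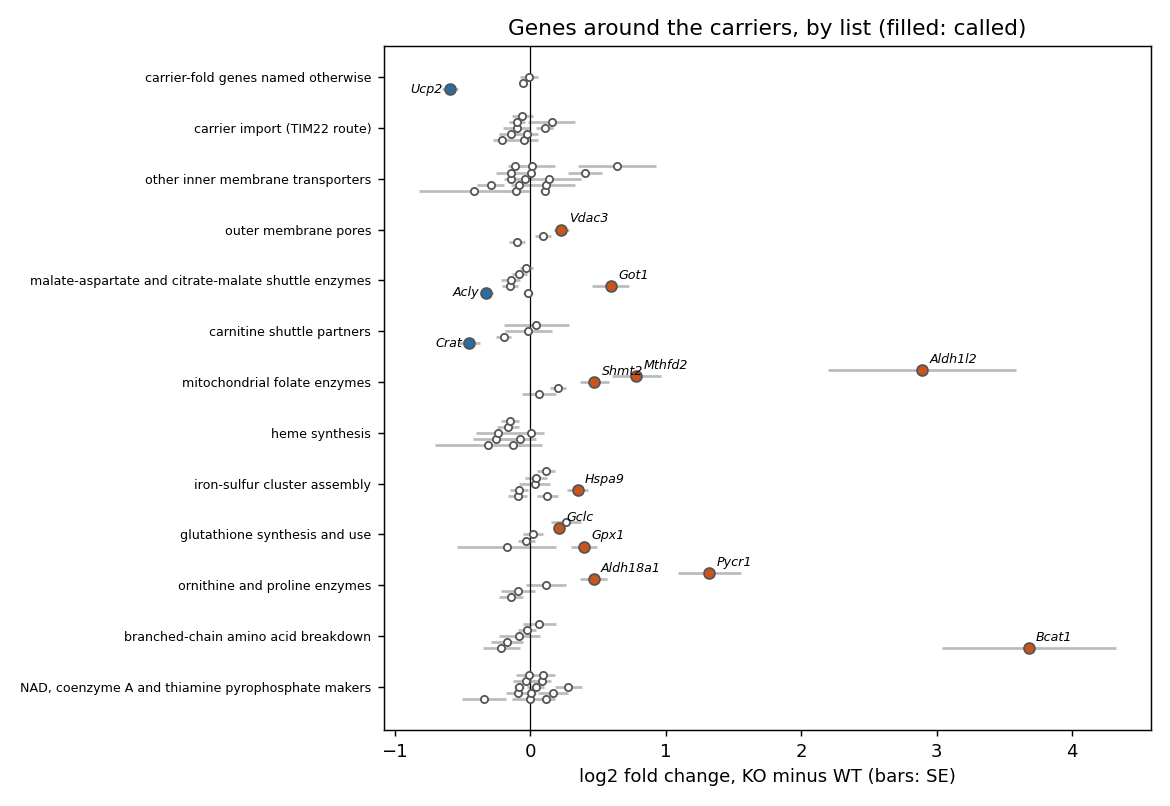
Log2 fold change, KO minus WT, of tested genes in lists that work with the carriers, by list, with called genes filled and named. The called genes lie on both sides of 0, and Bcat1 and Aldh1l2 are farthest from it.

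Slc25a20 carries acylcarnitines into the matrix for fatty acid oxidation. It ran from 26.9 through 31.2 to 33.2 CPM in WT clones and stood at 25.8, 24.8, 26.6, 27.7 and 28.0 in KO clones. The groups overlapped, since WT 1A lay below KO 4K and 4L, and the log2 fold change of -0.20 ± 0.06 was not called (edgeR, adjusted p = 0.101). DESeq2, the random block and a covariate for late neutrophil genes each called it, and set means (-0.22, adjusted p = 0.126) and counts summed per title number (-0.21, 0.153) did not. The covariate is a score from these same counts, at 5.32 in WT 2D and from -2.90 to 2.00 in the other clones. Its partners in the carnitine shuttle had 0 higher and 1 lower gene of 4 tested, with a median of -0.10. Crat, carnitine acetyltransferase, was lower at 22.7 ± 1.44 against 30.9 ± 3.51 CPM without overlap (-0.45 ± 0.08, edgeR adjusted p = 0.0129). The Crat call was kept on leaving out any 1 clone, and lost with summed counts (-0.45, adjusted p = 0.120) and without title number 1 (-0.31, 0.117), 3 (-0.40, 0.128) or 4 (-0.52, 0.183).

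Iron and glutathione carriers were 2 members each, all tested, with 0 called by edgeR or DESeq2 and all 4 estimates positive. Slc25a37 and Slc25a39 had an unadjusted p under 0.05. Slc25a37, mitoferrin-1, ran from 67.0 through 71.8 to 94.1 CPM in WT clones and stood at 89.9, 79.7, 107, 84.9 and 110 in KO clones. WT 2D and 1A reached into the KO range, and the log2 fold change of 0.29 ± 0.11 did not pass (edgeR, adjusted p = 0.180). It was called with the late neutrophil covariate (0.37, adjusted p = 0.0164) and with the random block (0.31, adjusted p = 0.0334), and not with set means (0.26, 0.280) or counts summed per title number (0.27, adjusted p = 0.181). Slc25a28, mitoferrin-2, was at 28.8 ± 2.35 and 31.4 ± 1.40 CPM (0.12 ± 0.06, edgeR adjusted p = 0.295).

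Slc25a39, the main glutathione importer, ran from 179 through 185 to 221 CPM in WT clones and stood at 222, 195, 197, 213 and 233 in KO clones. All WT clones but 2D lay below all KO clones. The log2 fold change of 0.16 ± 0.06 was not called with every clone (edgeR, adjusted p = 0.196), and without WT 2D it was 0.21 and called (edgeR, adjusted p = 0.0361). The late neutrophil covariate, highest in WT 2D and so not separate from that fit, also called it (0.20, edgeR adjusted p = 0.0386). So did the random block (0.16, adjusted p = 0.0491), with the limit given for Slc25a4, and counts summed per title number did not (0.16, adjusted p = 0.158). Slc25a40, its relative, was far lower, with Slc25a39 at 77.2 to 106 times its level per length in WT and 51.8 to 97.0 times in KO clones, and had an estimate of 0.28 ± 0.16 (edgeR, adjusted p = 0.370).

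Around these carriers, 8 tested genes of heme synthesis had 0 called by edgeR or DESeq2, 0 at an unadjusted p under 0.05 and a median of -0.16, and the most abundant, Alas1, spread widely within both genotypes (-0.31 ± 0.39, edgeR adjusted p = 0.714). Erythroid markers summed to 6.01 to 81.5 CPM in WT and 5.55 to 14.1 in KO clones, with 0 of 5 tested called by edgeR, 1 by DESeq2 and 1 at an unadjusted p under 0.05, and their part in the iron and heme values was not tested. Iron-sulfur cluster assembly had 1 higher and 0 lower gene of 7 tested, with a median of 0.04. That gene was Hspa9, the matrix Hsp70 (0.35 ± 0.08, edgeR adjusted p = 0.0311), and its call was lost in 8 of the 11 fits, all but those without WT 2D, WT 2E and KO 4K. Glutathione synthesis and use had 2 higher and 0 lower genes of 6 tested, beside 2.76% and 2.29% of all genes, with a median of 0.12. Gclc, the catalytic subunit of the limiting enzyme, was at 98.5 ± 3.35 and 114 ± 3.84 CPM without overlap (0.22 ± 0.03, edgeR adjusted p = 0.00708). The Gclc call was kept on leaving out any 1 clone, and lost with summed counts (0.23, adjusted p = 0.0679) and without title number 1, 3 or 4 (0.19 to 0.26, adjusted p from 0.106 to 0.112). Gpx1, a peroxidase that uses glutathione, had 0.40 ± 0.09 (edgeR, adjusted p = 0.0375), and its call was lost in 9 of the 11 fits, all but those without WT 1A and WT 2D.

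The remaining members are less well understood. Of the relatives of uncoupling proteins, Slc25a14 (-0.17 ± 0.12) and Slc25a30 (-0.01) were tested and not called. Slc25a46, an outer membrane member tied to mitochondrial shape, was among the steadiest at 74.7 to 83.5 CPM in KO and 73.5 to 79.8 in WT clones (0.05 ± 0.04). Of 8 members with no settled substrate 5 were tested and 0 called by edgeR or DESeq2, 0 at an unadjusted p under 0.05, with 1 positive and 4 negative estimates. Among these, Slc25a35 had only 5 to 19 counts per clone, at 0.642 ± 0.0979 and 0.396 ± 0.232 CPM (-0.69 ± 0.33, edgeR adjusted p = 0.271), with KO clones at 0.254, 0.509, 0.212, 0.753 and 0.251 CPM and WT clones from 0.498 to 0.773. It shares 1151 exon bases with Rangrf, which lies on the opposite strand and had at most 1 count in a clone. Counting ignored strand, so the level of Slc25a35 is uncertain. The random block called it lower, and counts summed per title number did not (-0.68, adjusted p = 0.225).

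Slc25a43, on the X chromosome, had no reads in some clones and similar levels in the others. Counts were 0, 122, 0, 0, 119 and 0 in WT clones 1A to 2F and 0, 129, 123, 121 and 0 in KO clones 3H to 4L. The 5 clones with reads stood between 4.38 and 5.69 CPM, they came from both genotypes and all 4 title numbers, and no clone lay between. A count of 0 allows up to 3 counts. Its within-genotype SD of log2 CPM was 3.11, larger than that of 99.8% of tested genes, and its log2 fold change of 1.15 ± 1.64 (edgeR, adjusted p = 0.752) rests on how many clones of each genotype had reads. Every clone had 2164 to 2920 counts of the Y-linked Ddx3y and at most 2 of Xist, the X inactivation transcript. The median within-genotype SD was 0.13 over the members and 0.15 over all genes, and Slc25a3 was steadiest at 0.03, above only 0.765% of genes.

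Slc25a27, a brain-enriched relative of uncoupling proteins, failed the filter on low counts. It had 0, 5, 3, 5, 3 and 0 counts in WT clones and 17, 9, 42, 1 and 22 in KO clones. Its KO level ran from 0.0471 to 1.78 CPM, with KO 4K inside the WT range of 0 to 0.216. With no filter on low counts the estimate was 2.90 ± 0.83 and was not called (edgeR, adjusted p = 0.119). The other untested members with reads, Slc25a2, Slc25a18, Slc25a21, Slc25a34, Slc25a41 and Slc25a54, had at most 9 counts in a clone, and Slc25a48 had 0 in all.

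**Figure D5:**
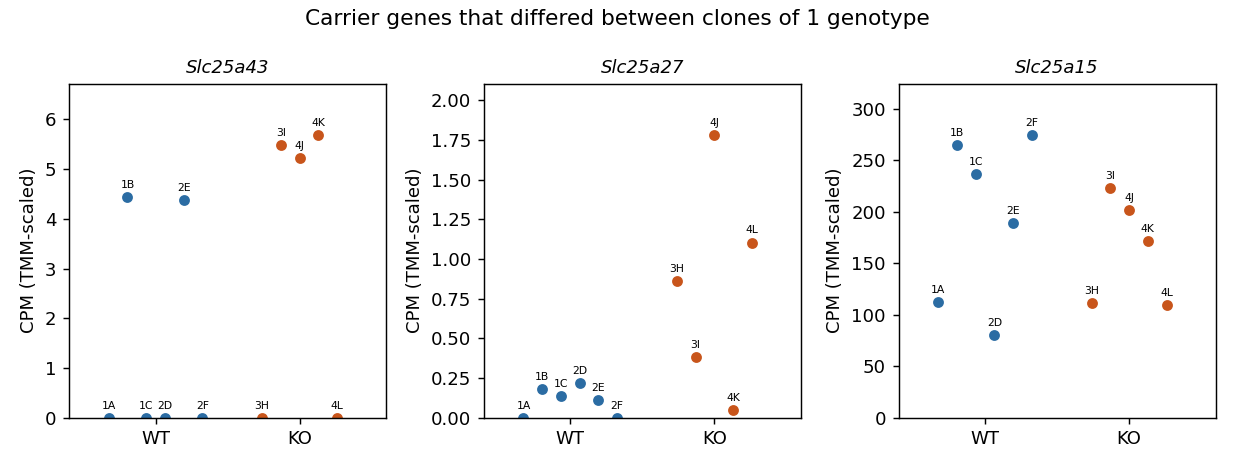
CPM of Slc25a43, Slc25a27 and Slc25a15 in every clone, by genotype. Slc25a43 is at 0 in 6 clones and between 4.38 and 5.69 CPM in the other 5, and Slc25a15 has low and high clones in both genotypes.

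The carriers depend on other machinery to reach the inner membrane. Of 9 tested genes of the TIM22 import route 0 were called by edgeR or DESeq2 and 1 had an unadjusted p under 0.05, with a median of -0.06, and the receptor Tomm70a was at 423 ± 48.7 and 406 ± 23.9 CPM (-0.06 ± 0.08, edgeR adjusted p = 0.731). Of 15 tested inner membrane transporters outside the family edgeR called 0 and DESeq2 2, and 5 had an unadjusted p under 0.05, with a median of -0.04, and the most abundant, the serine transporter Sfxn1, was at 334 ± 14.4 and 360 ± 5.44 CPM (0.11 ± 0.03, edgeR adjusted p = 0.0973). Of 3 outer membrane pores 1 was higher. That was Vdac3, at 52.9 ± 2.83 and 62.0 ± 4.41 CPM (0.23 ± 0.05, edgeR adjusted p = 0.0389), and the call was lost in 9 of the 11 fits that left 1 clone out, all but those without WT 2D and KO 4K.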

How the data were processed

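The authors deposited raw counts of reads per Ensembl gene for each clone, as whole numbers that were neither normalised nor pooled, and the submitters' processing notes list STAR, HTSeq, edgeR and mm9. Library construction kept strand after polyA selection, per the labels' protocols, but the deposited counts are marked as not stranded, so overlapping antisense genes cannot be told apart. The annotation release used for counting is not stated there. Names, exon lengths (the union of all annotated exons) and neighbours came from GENCODE M21 (GRCm38), matched by gene ID (32860 of 37583), and no coordinates of the files were converted. Rows naming no gene were kept out: reads in no feature were 6.07 ± 0.551% in WT and 6.59 ± 0.411% in KO clones.

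Counts were fitted in edgeR 4.0.16 (TMM scaling, filterByExpr, robust quasi-likelihood test), KO against WT over all 11 clones, with Benjamini-Hochberg adjustment over 11900 genes and calls at 0.05. Standard errors were taken from each fold change and its F statistic. DESeq2 1.42.0 and limma 3.58.1 served as alternatives. The fit was also run on simulated counts of independent clones with no title-number effect. That run does not cover likeness within a title number, and its outcome is not reported here. Every family gene could be named, and of each related list the called genes, otherwise the most abundant one. Members and lists were chosen with earlier results of these data known. Depth of 19778119 to 27431544 counts limits members under about 10 counts, and floors cover counting error only. Some genes are not reported or plotted here.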

Additional observations from a re-analysis of the deposited data

Results flagged for a closer look

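Of 78 groups of clones examined over the tested members and Ucp2, 4 held a clone far from the rest of its group, judged by its gap to the nearest other clone as a part of the whole range. The limit used is a critical value that chance passes in about 1 in 20 groups, so 4 of 78 is about what chance gives. Slc25a10, the dicarboxylate carrier, was at 36.1 CPM in KO 4K, and the nearest other KO clone was at 31.8. Slc25a23, an ATP-Mg carrier, was at 45.9 CPM in KO 4J, with the nearest KO clone at 33.3. Slc25a39, the glutathione importer, was at 221 CPM in WT 2D, with the nearest WT clone at 187. Slc25a51, the NAD carrier, was at 131 CPM in KO 4K, with the nearest KO clone at 117. WT 2D is the clone with 1504 CPM of late neutrophil genes, and the Slc25a39 log2 fold change was 0.16 with all clones, 0.21 without WT 2D and 0.20 with the late neutrophil covariate.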

How the results depend on the processing

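The fit was repeated under 28 alternative settings. The count of higher members, 1, became 3 with the title number as a random block and 3 with a late neutrophil covariate, was 0, 0 and 0 without title numbers 1, 3 and 4, and ran from 1 to 2 on leaving out 1 clone (2 without WT 2D). The count of lower members, 2, became 5 with the random block, was 1, 1 and 1 with no filter on low counts, with set means and with counts summed per title number, was 0, 1, 1 and 0 without title numbers 1, 2, 3 and 4, and ran from 1 to 2 on leaving out 1 clone (1 in each fit without WT 1A, WT 1B, WT 1C, WT 2E, KO 3H, KO 3I, KO 4J and KO 4L). Over all genes, calls numbered 601 in the first fit, 1261 with DESeq2, 1963 with the random block, 957 with the covariate, 329 with no filter, 307 with set means and 197 with summed counts, 45, 296, 92 and 32 without title numbers 1 to 4, and 240 to 739 on leaving out 1 clone. Fits without a title number have fewer clones.

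Slc25a33 was called in 25 and Slc25a1 in 26 of the 28, Slc25a10 in 13, and 30 tested members in none. Slc25a4, Slc25a20, Slc25a35, Slc25a37 and Slc25a39 were called in 1 or more alternatives only. For Slc25a4 and Slc25a35 the random block was the only such fit, and it gave both a smaller standard error than limma-voom without it. Slc25a43 turned to -0.085 with the covariate, and the cause was not tested. It is 1 of 12 members, none called, whose estimate changed sign in some setting. No paired analysis was possible because the genotypes share no replicate numbers. Members with under about 10 counts have too little depth to be ranked.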
